A study of Mus musculus with 2 samples.

Results

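The insulin-like growth factor axis was followed through 9 genes of the 29417 in the deposited table. They were taken by name and comprise the ligands Igf1 and Igf2, the receptors Igf1r and Igf2r, and the binding proteins Igfbp3, Igfbp4, Igfbp5, Igfbp6 and Igfbp7. Their levels were described across cell classes set by marker genes, across subclusters of fibroblast-like, macrophage-like and endothelial-like cells, and across hashtag populations. All 9 had reads, and none was used to cluster the cells.

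The cells were the stromal vascular fraction, what is left of fat after digestion and removal of adipocytes, from epididymal white adipose tissue of wild-type male C57BL/6J mice. Mice were fed a high-fat diet for 16 weeks, a high-fat diet for 8 weeks, or a standard diet for 16 weeks, and their ages are not stated in the labels. The suspensions carried hashtag antibodies, which mark each cell with the barcode of its suspension, and were pooled into 1 BD Rhapsody run with TAS-Seq amplification. The labels do not link hashtags with diets, so the 9 hashtag populations, with 810 to 1428 cells each, stand as unassigned samples, no diet comparison was made, and no value has a replicate of a condition.

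IGF1 and IGF2 are secreted peptides that act through IGF1R, a receptor tyrosine kinase close to the insulin receptor. IGF2R has no kinase: it takes up IGF2 for breakdown and also carries enzymes tagged with mannose 6-phosphate to lysosomes. IGF-binding proteins hold the ligands outside cells, prolonging their life, limiting their access to receptors or releasing them when proteases cut the binding protein, and IGFBP7 binds IGFs only weakly. In fat, IGF1 is known as a signal for the growth and differentiation of adipocyte precursors.

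After filters, 10286 cells remained, with a median of 36709 reads and 2763.5 genes per cell. They fell into 14 named classes and 1 unnamed cluster of 700 cells, whose median was 11609 reads. Its leading genes included those of haemoglobin, Cfd and Adipoq. It had 10 of 10 macrophage markers at 20 CPM or more, with a sum of 11062 CPM. Erythroid markers summed to 5223 CPM and adipocyte markers to 55.4 CPM. It was left unnamed for its low depth and for having no macrophage marker among its leading genes. The largest classes held 3410 macrophage-like, 3133 fibroblast-like and 992 endothelial-like cells. Of 10 fibroblast markers, all 10 were at 20 CPM or more in fibroblast-like cells, with a sum of 42009 CPM, against 563 CPM in macrophage-like cells. All 10 macrophage markers were so in macrophage-like cells, with a sum of 18369 CPM, against 369 CPM in fibroblast-like cells. Mesothelial-like cells had 9 of 10 fibroblast markers at 20 CPM or more, with a sum of 17194 CPM. Their 10 mesothelial markers summed to 9267 CPM. The part of fibroblast RNA in the mesothelial-like levels below was not tested. Subclusters are numbered within a class (F fibroblast-like, M macrophage-like, E endothelial-like, T for T and natural killer-like cells). F10 and T3 carried macrophage markers, M4 fibroblast, M12 endothelial, E2 mural and macrophage, E4 mural, M11 monocyte, M2 and M10 dendritic, and F3, M8 and E4 erythroid markers. A level is the summed reads of a gene in a class scaled to all reads of that class and given as CPM, with an exact 95% Poisson interval in parentheses. Such intervals cover only counting error, and they are narrower than the true error since reads of 1 molecule need not be independent. A difference is called at 2-fold with at least 20 CPM in 1 of both groups, and levels of different genes are not compared, since CPM is not scaled to gene length. Hashtag values are the lowest, median and highest over populations with at least 10 cells of the class. The share of all genes whose hashtag ranges do not overlap between 2 classes was not counted. A lack of overlap is therefore a description, from which nothing particular to the members is read.

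Igf1, Igfbp4, Igfbp5, Igfbp6 and Igfbp7 lack low values in the table. Their lowest values above 0 are 7, 7, 8, 9 and 9 reads, so that a 0 can stand for any smaller count. Where each 0 was given 1 read less than that minimum, the most the gap can hide, the value is called gap-filled. For Igf2, Igf1r, Igf2r and Igfbp3 the lowest value is 1 read.

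Promoter windows of RefSeq (build GRCm38.p6, 300 bases around an annotated start) were found for all 9 members, 12 windows in all because Igf2 has several. The search covered the TATA box as TATAAA, the GC box as GGGCGG and the CCAAT box by these 5 letters, on both strands. TATAAA was in 2 of the 12 windows, GGGCGG in 5 and CCAAT in 3, while 13.6%, 35.7% and 37.4% of 32851 promoters of the same length held them. Shown are Igf1 and Igfbp5, which in deposited values differed in opposite directions in the fibroblast-like subclusters F2, F5 and F6. Also shown are Igfbp4 and Igfbp6, which hold the 2 windows with TATAAA. Matches on either strand are in capitals and do not overlap each other in these windows; Igfbp5 has no match. A match is a description of letters, and a missing one says nothing of a factor.
Igf1, chr10:87860861-87861160, plus strand: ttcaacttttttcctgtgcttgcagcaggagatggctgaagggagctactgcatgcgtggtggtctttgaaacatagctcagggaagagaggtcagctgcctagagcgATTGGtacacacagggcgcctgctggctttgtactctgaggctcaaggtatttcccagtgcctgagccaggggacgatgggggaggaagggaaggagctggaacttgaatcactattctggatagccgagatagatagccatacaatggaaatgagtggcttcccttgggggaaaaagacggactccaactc
Igfbp5, chr1:72874816-72875115, minus strand: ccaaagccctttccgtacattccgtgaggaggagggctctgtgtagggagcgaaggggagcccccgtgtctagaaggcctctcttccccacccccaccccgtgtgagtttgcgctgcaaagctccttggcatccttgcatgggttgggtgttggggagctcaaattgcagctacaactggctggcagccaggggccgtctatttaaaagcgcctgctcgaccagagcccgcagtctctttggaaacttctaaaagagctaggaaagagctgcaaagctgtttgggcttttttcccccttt
Igfbp4, chr11:99040994-99041293, plus strand: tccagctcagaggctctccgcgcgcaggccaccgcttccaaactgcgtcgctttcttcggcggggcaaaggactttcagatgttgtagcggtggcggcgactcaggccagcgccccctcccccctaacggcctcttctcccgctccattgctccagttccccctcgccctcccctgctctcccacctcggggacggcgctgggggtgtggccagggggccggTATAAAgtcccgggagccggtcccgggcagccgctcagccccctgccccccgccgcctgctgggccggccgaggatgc
Igfbp6, chr15:102143936-102144235, plus strand: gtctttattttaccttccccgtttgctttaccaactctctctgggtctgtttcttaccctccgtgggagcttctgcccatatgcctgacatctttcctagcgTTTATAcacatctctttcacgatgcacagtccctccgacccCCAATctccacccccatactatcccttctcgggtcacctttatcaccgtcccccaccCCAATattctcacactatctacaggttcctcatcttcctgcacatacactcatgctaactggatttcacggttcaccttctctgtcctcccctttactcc

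The members lie on 7 chromosomes by the GENCODE M21 annotation of GRCm38, in whole-gene spans. Igf1 spans chr10:87858265-87937042 on the plus strand and Igf2 spans chr7:142650766-142666816 on the minus strand. Igf1r spans chr7:67952827-68233668 (plus) and Igf2r chr17:12682406-12769664 (minus). Igfbp3 lies at chr11:7206086-7213923 (minus) and Igfbp4 at chr11:99041244-99054392 (plus). Igfbp5 lies at chr1:72857932-72874884 (minus), Igfbp6 at chr15:102144362-102149511 (plus) and Igfbp7 at chr5:77349240-77408041 (minus). Reads are per gene, so exons and promoters used were not resolved.

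**Figure D1:**
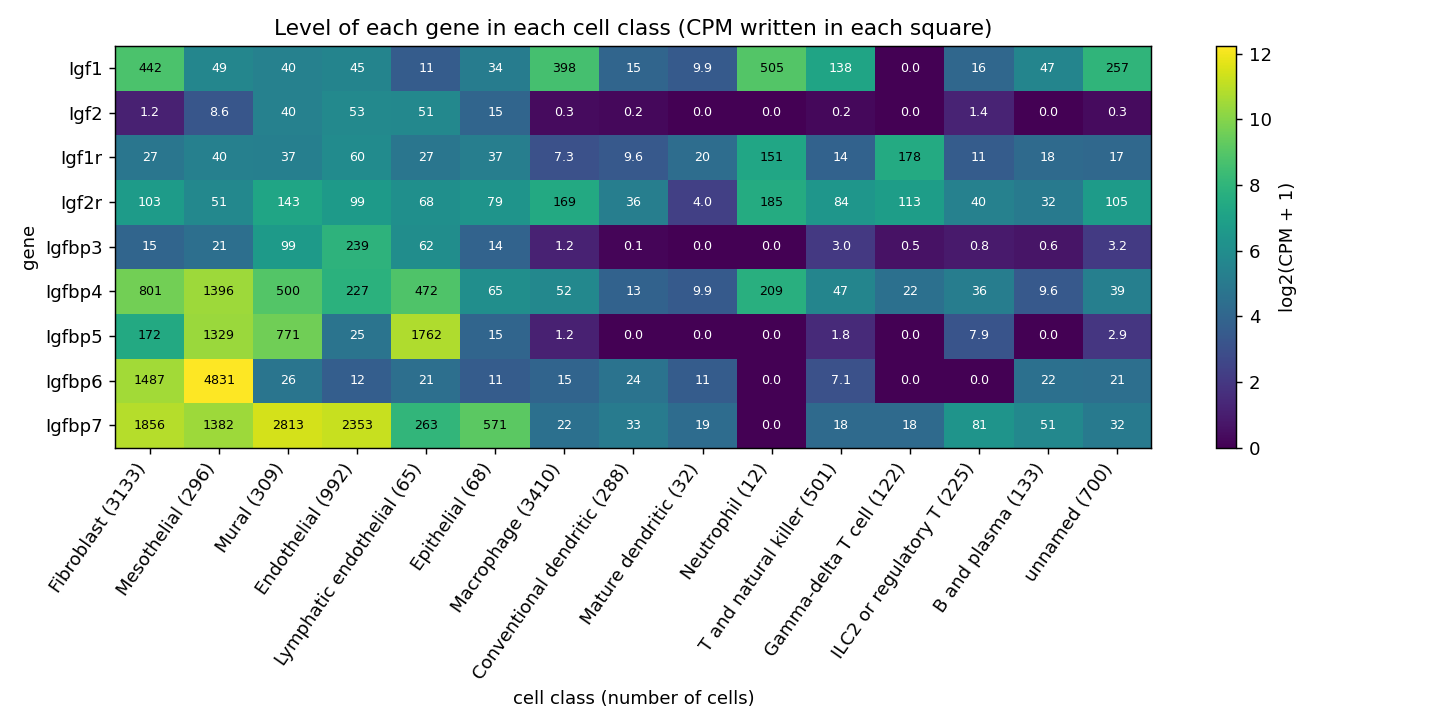
Levels of the 9 genes (rows) in the 14 named cell classes and the unnamed cluster (columns, with cell numbers); colour is log2(CPM + 1) and each square carries its CPM. Igf1 has 442 CPM in fibroblast-like cells, against 398 CPM in macrophage-like cells. Igfbp3 is at its highest in endothelial-like cells, and Igfbp6 at 4831 CPM in mesothelial-like cells. Igf2 has 53.0 CPM in endothelial-like and 51.3 CPM in lymphatic endothelial-like cells, with overlapping counting intervals.

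Igf1, the main growth-promoting ligand after birth, was high in both large classes. It had 442 CPM (439 to 445) in fibroblast-like cells and 398 CPM (396 to 400.3) in macrophage-like cells. By hashtag the values were 224, 334 and 829.1 CPM in fibroblast-like cells and 199, 327 and 477 CPM in macrophage-like cells, so these ranges overlapped and neither class was set apart. Fibroblast-like cells were higher in 6 of 9 hashtag populations, and the ratio of 1.11 is 0.960 without A0303. Fibroblast-like cells held 35.8% and macrophage-like cells 60.6% of all Igf1 reads.

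The share of Igf1-positive cells ran the other way from its level. At 6 reads, in effect 7 or more, Igf1 was found in 41.6% of fibroblast-like cells and 61.8% of macrophage-like cells, against 5.26% of B and plasma-like cells. The median depth was 45763 reads in fibroblast-like, 70517.5 in macrophage-like and 14773 in B and plasma-like cells. With every cell thinned to 5000 reads, the shares with at least 1 Igf1 read were 36.6%, 52.1% and 4.51%. Thinning does not restore the Igf1 counts under 7 reads that the table lacks, a loss that weighs more in shallow cells. The gap to B and plasma-like cells is therefore not read as one at matched depth. No order between the large classes is read from the share, as it runs opposite to the CPM.

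Among the other classes, Igf1 reached 505 CPM in the 12 neutrophil-like cells, from 104 reads of which 1 cell held 92.3% (67.4 CPM without it). The unnamed cluster, which carried macrophage markers, had 257 CPM, and the part of macrophage RNA in it was not tested. T and natural killer-like cells had 138 CPM, of which subcluster T3 gave 1446 of 1500 reads, with 413 CPM in its 54 cells, against 17.8 CPM in T1 and 4.45 CPM in T2. T3 carried all 10 macrophage markers at 20 CPM or more, with a summed level of 17005 CPM, against 281 CPM in T1 and 451 CPM in T2; the part of macrophage RNA in its Igf1 was not tested. Mesothelial-like, B and plasma-like, endothelial-like, mural-like and epithelial-like cells lay between 34.3 and 48.9 CPM, and neighbours in that order had overlapping counting intervals. Gamma-delta T cell-like cells had no Igf1 read, which allows up to 1.54 CPM by counting, while the gap-filled value is 376 CPM.

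Igf2, the ligand best known from growth of the embryo and an imprinted gene, was low and concentrated in vessel cells. Endothelial-like cells had 53.0 CPM (49.8 to 56.3), lymphatic endothelial-like cells 51.3 CPM (41.6 to 62.5) and mural-like cells 40.2 CPM (36.2 to 44.6). Their counting intervals overlapped between endothelial-like and lymphatic endothelial-like and between lymphatic endothelial-like and mural-like cells. Epithelial-like cells had 14.7 CPM and mesothelial-like cells 8.64 CPM. Fibroblast-like cells had 1.18 CPM and macrophage-like cells 0.294 CPM, far below the limit of 20 CPM.

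Within endothelial-like cells, Igf2 was held by subcluster E3. E3, whose leading genes included Gja5, a gap junction gene of arterial endothelium, Alpl and Npnt, had 197 CPM (185 to 211), against 10.4 CPM in other endothelial-like cells. E3 gave 886 of the 1044 endothelial-like Igf2 reads, and Igf2 was found in 22 of its 190 cells. The cell with the most reads held 19.9% of them, and E3 had 159.7 CPM without it. Igf2 in E3 was 761, 475 and 552 CPM in the hashtag populations A0301, A0302 and A0303, 209.8 CPM in A0304, 195 CPM in A0308, and 8.61 to 10.0 CPM in A0305, A0309 and A0310. Igf2 was higher in E3 than in other endothelial-like cells in all 8 populations with at least 10 E3 cells. Summed fibroblast and mural markers stood at 1214 and 686 CPM in E3, against 644 and 2719 CPM in subcluster E2; their part in the Igf2 level was not tested.

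**Figure D2:**
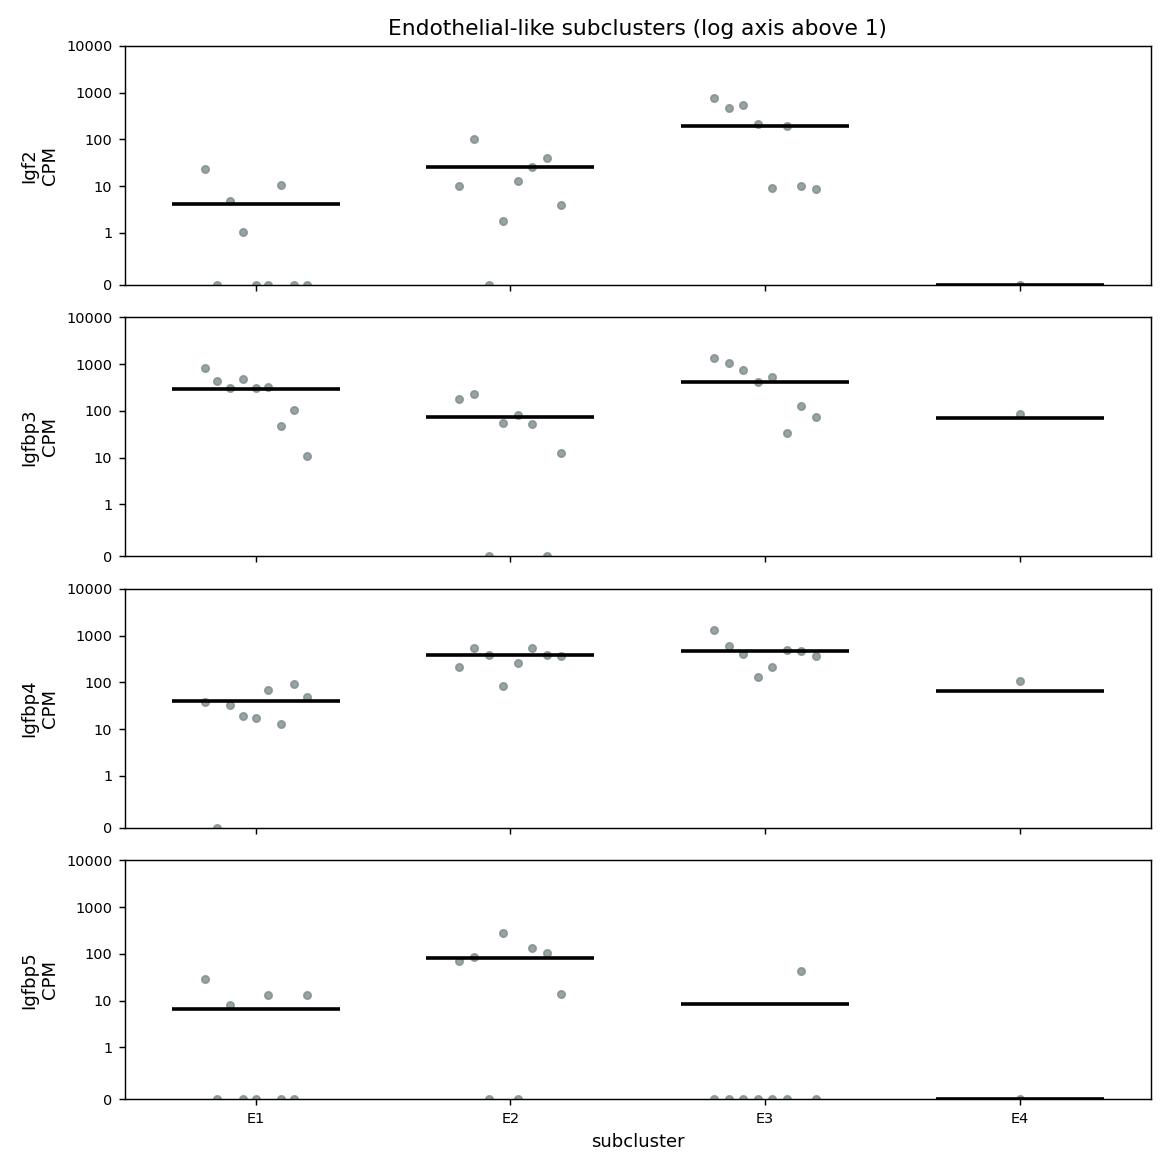
Igf2, Igfbp3, Igfbp4 and Igfbp5 in the 4 endothelial-like subclusters. Black lines are the CPM of all cells of a subcluster, points are hashtag populations with at least 10 of its cells, and the axis is logarithmic above 1. E3 has 197 CPM of Igf2, against 4.2 CPM in E1 and 25.3 CPM in E2.

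Igf1r, the receptor for both ligands, was high in a small class. Gamma-delta T cell-like cells had 178 CPM (160.2 to 198), with reads in 34 of 122 cells. The cell with the most reads held 9.22%, and the class had 163 CPM without it. Over 6 hashtag populations the values were 22.6, 199.8 and 382 CPM. These cells held all 4 gamma-delta T cell markers in the table, with a sum of 4729 CPM, and 466.4 CPM of summed macrophage markers. Igf1r stood at 13.6 CPM in T and natural killer-like and 10.9 CPM in ILC2 or regulatory T-like cells.

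Endothelial-like cells had 59.7 CPM of Igf1r (56.3 to 63.2), with 33.0, 58.8 and 115 CPM over hashtags. Mesothelial-like, mural-like and epithelial-like cells had 39.6, 37.4 and 36.9 CPM, with counting intervals that overlapped. Fibroblast-like cells had 27.1 CPM and macrophage-like cells 7.31 CPM, the lowest of all classes. Fibroblast-like cells were higher than macrophage-like cells in 9 of 9 hashtag populations: 17.2, 25.4 and 35.2 CPM in fibroblast-like and 4.17, 7.60 and 7.96 CPM in macrophage-like cells, with no overlap. Neutrophil-like cells had 151 CPM, from 31 reads, of which 1 cell held 71.0%.

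Igf2r was lower in fibroblast-like than macrophage-like cells, though within 2-fold. It had 103 CPM (102 to 105) in fibroblast-like cells, against 169 CPM (168 to 171) in macrophage-like cells. Over hashtags, fibroblast-like cells had 85.9, 101.5 and 146 CPM and macrophage-like cells 76.2, 149 and 206.5 CPM, so the ranges overlapped. Macrophage-like cells were higher in 8 of 9 hashtag populations. Mural-like cells had 143 CPM, gamma-delta T cell-like cells 113 CPM and endothelial-like cells 99.4 CPM, and mature dendritic-like cells 3.96 CPM.

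Igf2r also differed between macrophage-like subclusters. M10, which held 4 of 4 markers of the Lyve1 and Timd4 set known from resident macrophages, had 12.3 CPM, against 173 CPM in the rest of its class. M10 also held 3 of 3 markers of the Ccr2, Retnla and Plbd1 set and 2 of 2 of the Selenop and Ms4a6b set. M11, with markers of monocytes summing to 2951 CPM, had 20.1 CPM, against 171 CPM in the others. M2, also with all of the Ccr2, Retnla and Plbd1 set, had 57.2 CPM, against 178 CPM in the others. M2 was lower in 6 of 7 hashtag populations. The subclusters M1 (F7 and Il1rn) and M8 (Cpe, Hmga2 and Sox4) had 225 and 229.6 CPM, and M8 also carried haemoglobin reads, with 490.2 CPM over 4 erythroid markers. In M10, Igf2r was below the other macrophage-like cells in 6 of 6 hashtag populations, between 2.1 and 18.0 CPM. M10 cells were shallower, with a median of 23289 reads, against 113809 in M1 and 109194 in M8. With every cell thinned to 5000 reads, 1.91% of M10 cells had at least 1 Igf2r read, against 49.3% of M1 cells.

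**Figure D3:**
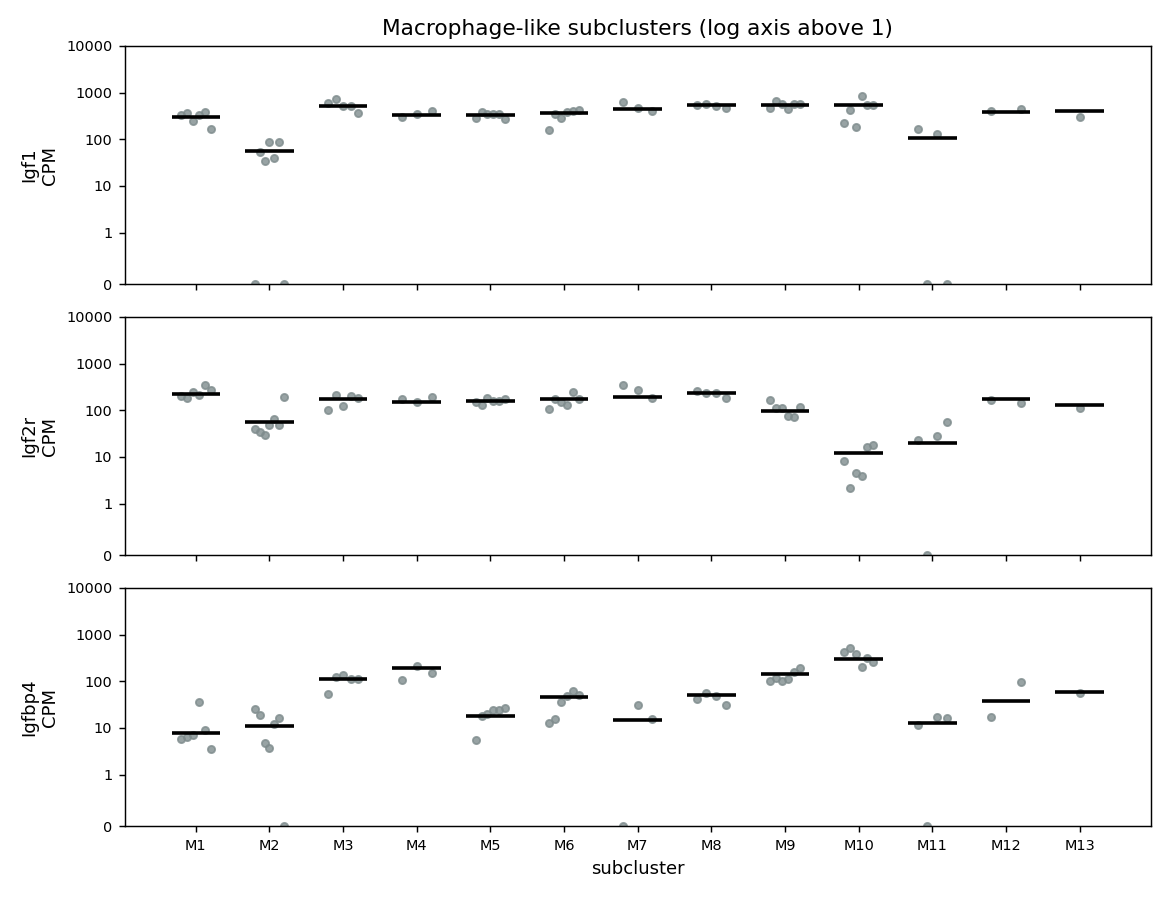
Igf1, Igf2r and Igfbp4 in the 13 macrophage-like subclusters. Black lines are the CPM of all cells, points are hashtag populations with at least 10 cells, and the axis is logarithmic above 1. M10 has 12.3 CPM of Igf2r and 300.2 CPM of Igfbp4, and M2 has 57.2 CPM of Igf1.

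Igf1 and Igfbp4 followed other orders over the macrophage-like subclusters. Igf1 was 57.2 CPM in M2, against 426 CPM in other macrophage-like cells, and M2 was below the others in 7 of 7 hashtag populations. M11 had 107 CPM. The remaining subclusters had 307.1 to 552 CPM, with M9, M10, M8 and M3 between 527 and 552 CPM. Igfbp4 had 300.2 CPM in M10, against 46.3 CPM in other macrophage-like cells, and was higher in 6 of 6 hashtag populations. It had 140.5 CPM in M9 and 111.5 CPM in M3, and 7.9 CPM in M1. The gap-filled Igfbp4 values are 409 CPM in M10 and 52 CPM in M1. M4, with 193 CPM of Igfbp4, carried 10 of 10 fibroblast markers with a sum of 12765 CPM, and their part in its level was not tested.

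Counted over members, M10 had 1 member higher and 1 lower of 4 at 20 CPM, where 8.22% of 6823 genes were higher and 10.5% lower. M2 had 4 of 4 lower and none higher, where 5.5% of 6576 genes were higher and 10.3% lower. M11 likewise had 4 of 4 lower, where 15.5% of 7057 genes were higher and 12.3% lower. In both M2 and M11 these were Igf1, Igf2r, Igfbp4 and Igfbp7. Igfbp4 was above 0 in 15 of 417 M2 cells and 4 of 86 M11 cells, and Igf1 in 9 M11 cells. Each of their 0s can hide up to 6 reads, so the Igfbp4 calls and the Igf1 call in M11 are read for deposited values only. Nothing is read from the Igfbp7 calls in M2, M11, M9 and M3. Igfbp7 passed 20 CPM there only in the other macrophage-like cells, whose sum includes M4 and M12 with 481 and 182 CPM, while every remaining subcluster had 2.77 to 20.7 CPM. M9 had Igfbp4 higher and Igfbp7 lower among 4 members, where 3.74% of 6544 genes were higher and 4.28% lower. M3 had the same 2 calls, where 3.18% of 6688 genes were higher and 4.62% lower. M6 and M13 had no call among 4 members, where 7.52% and 5.39% of genes were higher and 1.54% and 4.44% lower. M4 had 4 of 6 higher and none lower, where 11.9% were higher and 2.57% lower. M12 had 1 of 4 higher, where 2.92% were. M1, M5 and M7 had 2 of 4 lower, where 3.67%, 5.01% and 5.91% were. M8 had 1 of 4 lower, where 2.48% were. Nothing is read from the calls in M1, M4, M5, M7, M8 and M12. The median log2 difference of all genes was -0.12 in M10 and 0.16 in M11.

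Between the classes, the binding proteins were the members that differed most. Of 7 members with 20 CPM in 1 of both classes, 5 were 2-fold higher in fibroblast-like cells (Igf1r, Igfbp4, Igfbp5, Igfbp6 and Igfbp7) and none was 2-fold higher in macrophage-like cells, while Igf1 and Igf2r were within 2-fold. Of 7756 genes, 22% were higher in fibroblast-like cells and 17.9% were lower. Igf2 and Igfbp3 lay under 20 CPM in both classes.

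Igfbp3, the main carrier of IGFs in serum, was highest in endothelial-like cells, with 239 CPM (232 to 246). Mural-like cells had 99.1 CPM, lymphatic endothelial-like cells 62.3 CPM, mesothelial-like cells 21.4 CPM, fibroblast-like cells 15.1 CPM and macrophage-like cells 1.24 CPM. In mesothelial-like cells 1 cell held 66.9% of the reads (7.11 CPM without it). Within endothelial-like cells E3 had 413 CPM and E1 had 297 CPM, while E2, led by Selp and Ackr1, had 73.7 CPM. E2 was lower than the other endothelial-like cells in 8 of 8 hashtag populations. Endothelial-like values ranged over hashtags from 44.9 to 826 CPM with a median of 283 CPM.

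E3 had 4 of 9 members higher (Igf2, Igfbp3, Igfbp4 and Igfbp6) and 1 lower (Igfbp5) than other endothelial-like cells, where 4.68% of 7730 genes were higher and 5.46% lower. Of these, Igfbp6 in E3 came from 5 cells, had 16.5 CPM without the cell with the most reads, and was higher in 4 of 8 hashtag populations. Igfbp3 in E3 had 352 CPM without that cell, against 188 CPM in other endothelial-like cells, which is under 2-fold, and was higher in 7 of 8. E2 had 4 of 9 higher (Igf1, Igfbp4, Igfbp5 and Igfbp6) and 2 lower (Igf2 and Igfbp3), where 7.57% of 7865 genes were higher and 13.7% lower. Igfbp6 in E2 had 22.3 CPM from 3 cells, 10.5 CPM without the cell with the most reads, and was higher in 3 of 8 hashtag populations and lower in 3. Igf2 was lower in E2 in 5 of 8 populations, and the other endothelial-like cells include E3. Igfbp5 was 82.7 CPM in E2, against 6.23 CPM in other endothelial-like cells, and mural markers summed to 2719 CPM in E2, against 236 CPM in E1 and 686 CPM in E3. E2 also had 7 of 10 macrophage markers at 20 CPM or more, with a sum of 1001 CPM. The part of mural and macrophage RNA in the E2 levels, Igf1 and Igfbp5 included, was not tested. In E2, 1 cell held 36.3% of the Igfbp5 reads (53.7 CPM without it). Gap-filled Igfbp5 is 287 CPM in E2 and 534 CPM in E1, the opposite order. E1, a shallow subcluster with a median of 11195.5 reads, had none of 8 members higher and 4 lower (Igf1, Igf2, Igfbp4 and Igfbp5), where 5.42% of 7826 genes were higher and 6.66% lower. In E1, Igf1 was above 0 in 7 of 594 cells and Igfbp4 in 23, and each 0 can hide up to 6 reads. Igfbp6 lacks low values too, so the calls of Igf1, Igfbp4, Igfbp5 and Igfbp6 in E1, E2 and E3 are read for deposited values only. E4, with 49 cells, had none of 8 members higher and 4 lower (Igf2, Igfbp3, Igfbp4 and Igfbp5), where 11.8% of 8076 genes were higher and 12.1% lower. Its Igfbp4 and Igfbp5 calls are likewise read for deposited values only. The median log2 difference of all genes was -0.17 in E2.

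Igfbp4, a binding protein cut by PAPPA, was highest in mesothelial-like cells with 1396 CPM (1379 to 1414), and over hashtags with 1106, 1193 and 1790 CPM. Fibroblast-like cells had 801 CPM and macrophage-like cells 51.6 CPM. Over hashtags fibroblast-like cells had 544, 722 and 1358 CPM and macrophage-like cells 25.6, 59.2 and 120.0 CPM, with no overlap. Igfbp4 reached 6 reads, in effect 7 or more, in 70.1% of fibroblast-like and 22.5% of macrophage-like cells, against 1.504% of B and plasma-like cells. After thinning, the shares with at least 1 read were 64.5%, 14.1% and 1.504%. Igfbp4 counts under 7 reads were missing before thinning, more so in shallow cells, so these shares are not at matched depth. The gap-filled ratio of fibroblast-like to macrophage-like cells is 8.12, against 15.5 as deposited.

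Igfbp5, which also binds matrix, was highest in lymphatic endothelial-like cells with 1762 CPM (1703 to 1822), where the cell with the most reads held 19.9% (1462 CPM without it). The 5 lymphatic endothelial-like cells with the most reads held 61.3%. Mesothelial-like cells had 1329 CPM and mural-like cells 771 CPM, and the hashtag ranges of lymphatic endothelial-like and mesothelial-like cells overlapped. Fibroblast-like cells had 172 CPM and macrophage-like cells 1.16 CPM, and over hashtags 83.6, 131 and 352 CPM in fibroblast-like cells, against 0, 0.36 and 12.6 CPM in macrophage-like cells, with no overlap. That ratio depends on the missing low values: it is 149 as deposited and 3.71 gap-filled, and 338 without the subclusters that carry markers of the other class.

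Igfbp6, which prefers IGF2 over IGF1, had most of its reads in mesothelial-like and fibroblast-like cells. Mesothelial-like cells had 4831 CPM (4799 to 4865) and fibroblast-like cells 1487 CPM (1481 to 1493), and these classes held 24.8% and 73.5% of its reads. Over hashtags the mesothelial-like values were 3099.6, 4148 and 5455 CPM and the fibroblast-like values 1107, 1428 and 1731 CPM, with no overlap. Every other class had at most 25.7 CPM as deposited. In mural-like cells, the highest of them as deposited, the gap-filled value is 291 CPM. That is no upper limit for the others, since filling adds more to classes of shallower cells. Macrophage-like cells had 14.5 CPM, and 4.38, 16.1 and 94.7 CPM over hashtags. Since the lowest Igfbp6 value is 9 reads, the limit of 6 reads is in effect 9 for this gene. The share of cells at that limit was 98.6% in mesothelial-like, 81.9% in fibroblast-like cells and 2.93% in macrophage-like cells, with 0.998% in T and natural killer-like cells.

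Igfbp7, a protein secreted into the vessel wall, was highest in mural-like cells with 2813 CPM (2779 to 2848) and endothelial-like cells with 2353 CPM (2332 to 2375). Fibroblast-like cells had 1856 CPM, mesothelial-like cells 1382 CPM and macrophage-like cells 21.7 CPM. Over hashtags mural-like cells had 2436, 2733 and 3458 CPM and endothelial-like cells 1928, 2226 and 2888 CPM, so these ranges overlapped. The fibroblast-like range of 1632, 1851 and 2190 CPM did not reach the mural-like values. Macrophage-like cells had 9.42, 30.2 and 138 CPM over hashtags, below every fibroblast-like value. Among their subclusters Igfbp7 was 481 CPM in M4, which carried the fibroblast markers, and 182 CPM in M12, which carried 9 of 10 endothelial markers with a sum of 723 CPM, and the part of those cells' RNA was not tested.

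**Figure D4:**
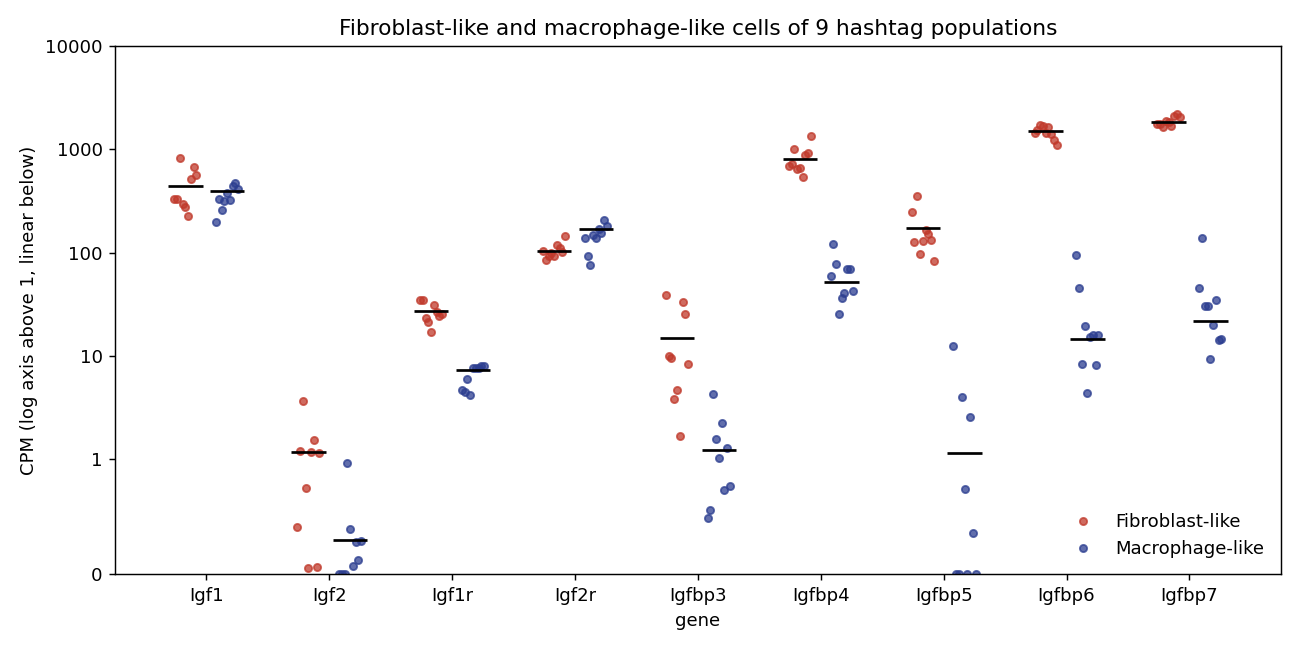
Each of the 9 genes in fibroblast-like (red, left) and macrophage-like (blue, right) cells. Points are the 9 hashtag populations, black lines the CPM of all cells of the class, and the axis is logarithmic above 1 CPM. Igfbp4 to Igfbp7 and Igf1r do not overlap between the classes, while Igf1, Igf2, Igf2r and Igfbp3 do. The share of all genes without such overlap was not counted, so nothing particular to the members is read from it.

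In deposited values, Igf1 and Igfbp5 differed in opposite directions in some fibroblast-like subclusters, not in all. F7 and F9 had Igf1 above the class level of 442 CPM (651 and 695) and Igfbp5 below that of 172 CPM (27.1 and 70.8). F1, F4, F8 and F10 were below both levels, F4 with 241 and 27.2 CPM and F8 with 248 and 78.3 CPM. F3 was above both, with 862 and 176 CPM. F2 and F6, both with 4 of 4 markers of the Dpp4 and Pi16 set known from universal progenitors of adipose tissue, had low Igf1 and high Igfbp5. F2, which also held 4 of 4 genes of the Ptx3 and Has1 set, had 59.4 CPM of Igf1, against 511 CPM in other fibroblast-like cells, and 445 CPM of Igfbp5, against 123 CPM. F6 had 71.6 CPM of Igf1, against 518 CPM, and 350.2 CPM of Igfbp5, against 136 CPM. F5, with 3 of 3 markers of the Apod and Hsd11b1 set, had 1059.8 CPM of Igf1, against 368 CPM, and 4.24 CPM of Igfbp5, against 193 CPM.

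Igf1 was lower in F2 than in other fibroblast-like cells in 9 of 9 hashtag populations and in F6 in 9 of 9. It was higher in F5 in 9 of 9 and in F9 in 9 of 9. Igfbp5 was higher in F6 in 9 of 9 hashtag populations and in F2 in 8 of 9, and lower in F5 in 9 of 9. In F2, 1 cell held 28.7% of the Igfbp5 reads (318 CPM without it). Gap-filled values keep F2 and F6 low in Igf1, at 154 and 138 CPM, against 1107 CPM in F5. For Igfbp5 they give 541, 408 and 158 CPM in F2, F6 and F5, and 526.2 CPM in the shallow subcluster F8, whose median is 13363 reads and whose deposited value is 78.3 CPM.

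**Figure D5:**
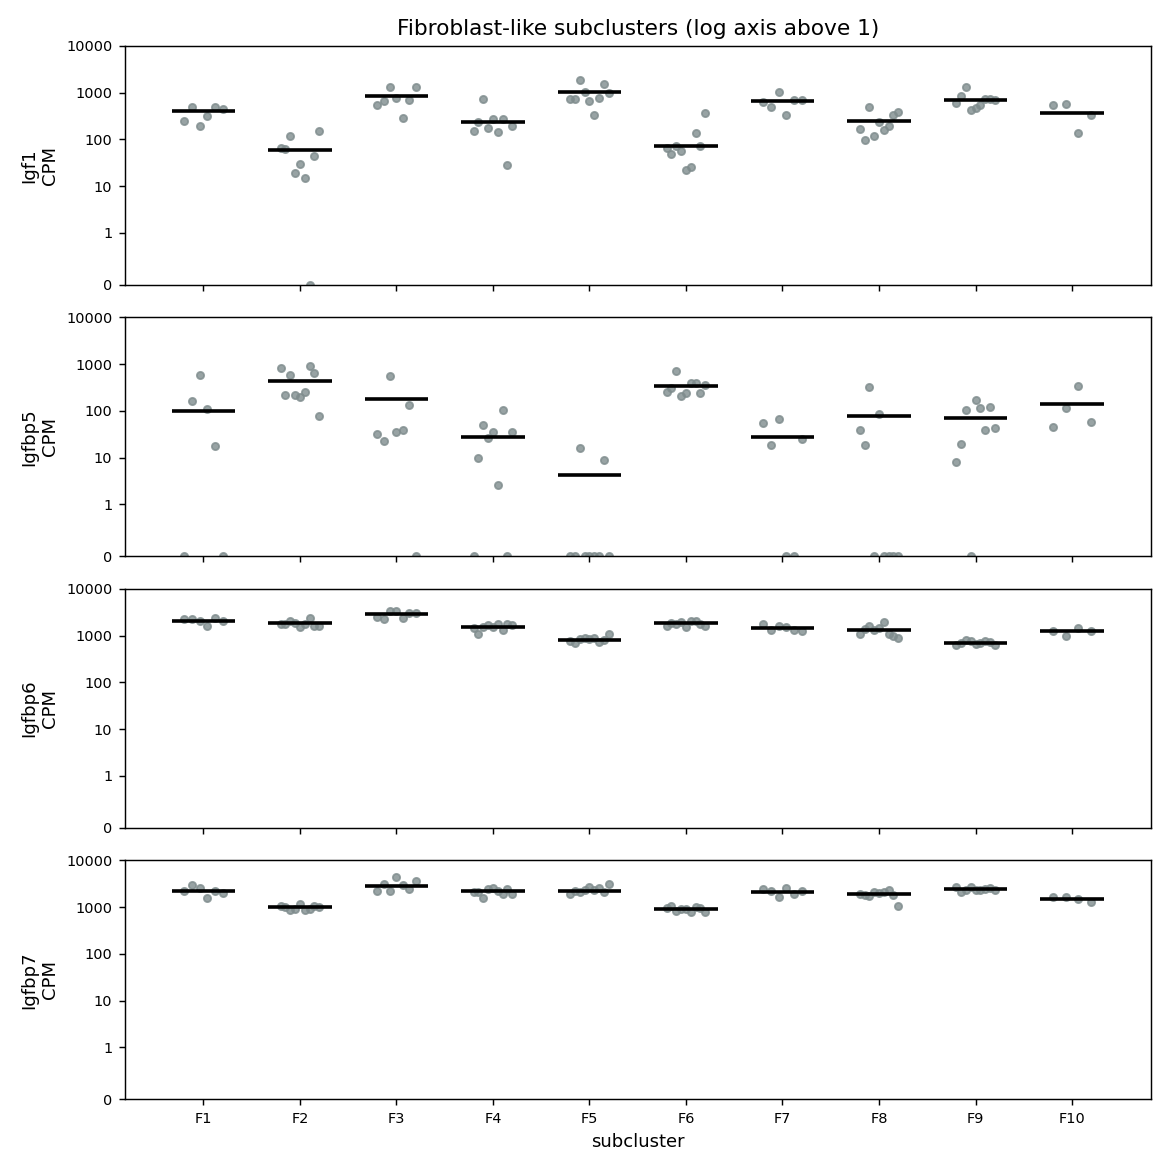
Igf1, Igfbp5, Igfbp6 and Igfbp7 in the 10 fibroblast-like subclusters. Black lines are the CPM of all cells, points are hashtag populations with at least 10 cells, and the axis is logarithmic above 1. F2 and F6 have 59.4 and 71.6 CPM of Igf1 and 445 and 350.2 CPM of Igfbp5, while F5 has 1059.8 and 4.24 CPM.

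Igfbp3, Igfbp6 and Igfbp7 also differed between fibroblast-like subclusters. Igfbp7 was 1002 CPM in F2 and 901 CPM in F6, lower than in other fibroblast-like cells in 9 of 9 hashtag populations each. Igfbp6 ran from 712.5 CPM in F9 to 2929.9 CPM in F3, and F9 was below the others in 9 of 9 hashtag populations. F3, with 4 of 4 markers of the Fmo2 and Gdf10 set, also had 862 CPM of Igf1 and 75.2 CPM of Igfbp3. In F3, 1 cell held 33.4% of the Igfbp3 reads (50.3 CPM without it). F3 carried haemoglobin reads, with 762 CPM over 4 erythroid markers, against at most 0.0971 CPM in any other fibroblast-like subcluster, and their part in its levels was not tested. Igfbp4 was within 2-fold in all of F2, F3, F5, F6 and F9.

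F2 had 1 of 7 members higher and 2 lower, where 2.3% of 6866 genes were higher and 4.4% lower. F6 had 1 of 7 higher and 2 lower, where 3.18% of 7065 genes were higher and 4.66% lower. F5 had 1 of 7 higher and 1 lower, where 2.92% of 7152 genes were higher and 3.3% lower. F3 had 3 of 8 higher and none lower, where 4.1% of 7022 genes were higher and 4.2% lower. Of these, Igf1 in F3 had 806.5 CPM without the cell with the most reads, against 414 CPM in other fibroblast-like cells, which is under 2-fold, and Igfbp3 was higher in 4 of 7 hashtag populations. Igfbp3 met the limit of 20 CPM only through F3 itself, as the whole class had 15.1 CPM, so it could not be called lower. F9 had none of 7 higher and 2 lower (Igfbp5 and Igfbp6), where 2.93% of 6922 genes were higher and 3.6% lower. F1 and F10 had no call among 7 members, where 1.93% and 5.03% of genes were higher and 2.72% and 2.45% lower. F4 had 1 of 7 lower and none higher, where 0.402% were higher and 2.39% lower. F7 had 1 of 8 higher and 1 lower, where 1.44% were higher and 3.63% lower. F8 had 3 of 7 lower and none higher, where 1.69% were higher and 20.1% lower. Each Igfbp5 value of 0 can hide up to 7 reads, so the Igfbp5 calls in F2, F5, F6 and F9 are read for deposited values only. The median log2 difference of all genes was 0.11 in F5 and 0.11 in F6.

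Other genes of the pathway were read from lists drawn up with earlier results known. Of 21 genes of signalling below the receptor, 17 reached 20 CPM in 1 of both classes, 4 were higher in fibroblast-like cells, 3 were higher in macrophage-like cells and 10 were within 2-fold, beside 22% and 17.9% of all genes. Grb10, an adaptor that restrains the insulin and IGF1 receptors, had 105 CPM in fibroblast-like cells, against 1.93 CPM in macrophage-like cells. Foxo1, a transcription factor that insulin and IGF signals keep out of the nucleus, had 51.4 CPM in fibroblast-like cells, against 11.2 CPM in macrophage-like cells. Pik3cb, a catalytic subunit of phosphoinositide kinase, had 2.08 CPM in fibroblast-like cells, against 34.6 CPM in macrophage-like cells. Grb2, another adaptor, had 49.5 CPM in fibroblast-like cells, against 231 CPM in macrophage-like cells. Ptpn1, a phosphatase that acts on these receptors, had 35.3 CPM in fibroblast-like cells, against 124 CPM in macrophage-like cells.

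Of 7 genes of growth hormone control, 5 reached 20 CPM, with 3 higher in fibroblast-like cells, none lower and 2 within 2-fold, beside the same 22% and 17.9%. Ghr, the growth hormone receptor, had 50.8 CPM in fibroblast-like cells, against 2.16 CPM in macrophage-like cells. Socs2 and Socs3, which restrain its signal, had 64.3 and 1008 CPM in fibroblast-like and 5.08 and 71.1 CPM in macrophage-like cells.

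Of 5 proteases and inhibitors of IGF-binding proteins, 1 reached 20 CPM. Htra1, a protease that cuts IGF-binding proteins, had 319 CPM in fibroblast-like cells, against 7.31 CPM in macrophage-like cells. Pappa, the protease that cuts IGFBP4, had 7.06 CPM in fibroblast-like cells, against 0.18 CPM in macrophage-like cells, under the limit. Of 4 genes of mannose 6-phosphate sorting, the task Igf2r also serves, all reached 20 CPM and 2 were higher in macrophage-like cells, with M6pr at 93.9 CPM in fibroblast-like cells, against 335 CPM in macrophage-like cells, and Nagpa at 17.9 CPM, against 44.0 CPM. No gene reached 20 CPM in these classes among 3 other binding proteins and 3 insulin and insulin receptor genes in the table. Of 7 genes of the Igf2 and Igf2r loci and of Igf2 RNA binding, 1 reached 20 CPM, Igf2bp2, with 6.55 CPM in fibroblast-like cells, against 51.4 CPM in macrophage-like cells. Igfbp2 was highest in epithelial-like cells with 565 CPM, and had 129 CPM in mesothelial-like cells and 0.20 CPM in fibroblast-like cells.

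The genes most like each member over 44 cell groups were named by Pearson's r of log2(CPM + 1) among 13320 genes, as a description, because the groups share 1 library. For Igfbp7 they were Ppic, Tcf7l1 and Nckap1 (r 0.945, 0.941 and 0.941), and for Igfbp6 Col1a1, Fgf2 and Nbl1 (0.940, 0.938 and 0.938). For Igfbp3 they were Cdh13, Ptprk and Ptprm (0.904, 0.885 and 0.880), for Igfbp4 Thbd, Copz2 and Thra (0.900, 0.872 and 0.868), and for Igfbp5 Kank1, Arhgap44 and Prss23 (0.878, 0.877 and 0.870). For Igf1 they were Cd302, Lamp2 and Vat1 (0.834, 0.828 and 0.822), for Igf1r Zbtb16, Prxl2c and Plpp5 (0.748, 0.736 and 0.729), and for Igf2r Arhgap10, Naa20 and Siae (0.775, 0.757 and 0.740).

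For Igf2 they were Gm49394, Stc1 and Chn1 (0.965, 0.823 and 0.814). Gm49394 overlaps Igf2 on the same strand in the annotation, and 106 of the 121 cells with a Gm49394 read also had an Igf2 read, and the values of both are uncertain. Genes on the other strand overlap 4 members: Igf1os had 272 reads, Igf2os 53, Airn 4916 beside 77265 of Igf2r, and Polr2b 15582 beside 414346 of Igfbp7. The labels do not say whether counting used strand, so reads of such pairs cannot be told apart.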

How the data were processed

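One pool was measured as a transcriptome library and a hashtag library, which were not replicates. Per the submitters' processing notes, R 3.6.3, Bowtie2 2.4.2 and cutadapt 2.10 were among the tools and GRCm38 was the build. The authors deposited whole-number counts, read here as reads per gene and cell and as tags per barcode; how they called cells, doublets and hashtags is not stated in the labels. Of 12040 cell columns, 12 had no hashtag call and were not used.

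Cells needed 200 genes and at most 25% mitochondrial reads, which removed 1253. Hashtag doublets (254) and Scrublet calls (236, not all of them outside the hashtag doublets) were removed. The rest were scaled to 10000, log-transformed and clustered (Leiden, resolution 1, seed 7, 15 neighbours, 30 components, 2000 variable genes, members and pathway genes left out). A cluster took a class name with 3 or more markers and 50% of its list, counted at 20 CPM and 25% of the highest cluster; these thresholds were set after clusters were seen. Python 3.11.15, scanpy 1.11.5, igraph 0.11.9, leidenalg 0.10.2, scikit-learn 1.9.0, numpy 2.4.6, scipy 1.17.1, pandas 2.3.3 and matplotlib 3.10.9 were used.

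Levels are summed reads as CPM. Intervals are exact (Poisson for levels, 95%), and a count of 0 allows 3 reads. Total reads per cell ran from 5169 to 736281. The members and lists were chosen with earlier results of these data known. Named were all members, the 3 genes most like each, and, per pathway list, at most the 5 genes with the largest 2-fold difference. Pappa and Igfbp2 were named after their values were seen. No test was run, because the hashtag populations of the 1 pool are unassigned samples. The ratio and interval code was tested on simulated data. Of 29417 symbols, 28350 (96.4%) matched GENCODE M21.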

Additional observations from a re-analysis of the deposited data

Results flagged for a closer look

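Gaps between hashtag populations were examined in 19 sets of 1 class and 1 gene, and chance flags about 1 in 20 such sets. Igfbp3 in endothelial-like cells was 826.1 CPM in the population A0301 and 44.95 to 439.4 CPM in the others. Igfbp4 in endothelial-like cells was 480 CPM in the same population and 101.1 to 284.4 CPM in the others. Igfbp7 in macrophage-like cells was 138.2 CPM in A0302, from 64 macrophage-like cells, and 9.422 to 45.87 CPM in the others. These populations have no diet label.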

How the results depend on the processing

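The number of members 2-fold higher in fibroblast-like cells was 5, and 4 to 7 under the other limits, weightings, filters and clusterings tried; the number 2-fold higher in macrophage-like cells was 0 in every one. No ratio reversed a called direction. Igf1 ran from 1.05 to 1.20 over those settings and from 0.960 (without A0303) to 1.16 without single hashtag populations. The ratios of Igfbp5, Igfbp6 and Igfbp7 moved most, to 3.71, 15.1 and 18.0 gap-filled and to 338, 357 and 168 without subclusters that carry markers of the other class. Leaving out the cell with the most reads was added after seeing the data. No paired analysis was possible because the hashtag populations are unassigned samples, on which no test was run; directions within each are given as counts. Depth limits small classes: 12 neutrophil-like, 32 mature dendritic-like and 65 lymphatic endothelial-like cells.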

Other observations

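Hashtag populations differed in Igfbp3 and Igf1, and no label gives their diets. Igfbp3 in endothelial-like cells was 826, 439, 340.5, 388, 241 and 283 CPM in A0301, A0302, A0303, A0304, A0305 and A0307, and 69.3, 84.6 and 44.9 CPM in A0308, A0309 and A0310. The share of all genes that separate the same populations was not counted, so nothing is read from the order of these values or of those that follow. Igf1 in fibroblast-like cells was 829.1 CPM in A0303, 519, 668 and 562 CPM in A0308, A0309 and A0310, and 224 to 334 CPM in the other 5. F9, with 695 CPM of Igf1, had 150, 132 and 71 cells in A0308, A0309 and A0310, and 28 to 40 elsewhere. F2, with 59.4 CPM, had 25, 21 and 13 cells there and 31 to 122 elsewhere. The part of these shares in the Igf1 levels was not tested. Igf2 in endothelial-like cells was 218, 111 and 130.1 CPM in A0301, A0302 and A0303, and 2.47 to 57.4 CPM in the other 6. Macrophage-like cells numbered 528, 671 and 618 in A0308, A0309 and A0310, and 64 to 102 in A0301, A0302 and A0303.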
